A study of Mus musculus with 2 samples.

Results

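Enzymes of glycolysis and of lactate metabolism were followed across the mouse brain: Hk1, Pfkp, Aldoa, Gapdh, Pgk1, Eno1, Eno2, Pkm, Ldha and Ldhb. They were chosen by gene symbol in the count matrices, where these 10 of 32285 genes were all detected in both sections. Expression had been measured on 2 coronal brain sections with Visium, a slide whose barcoded spots capture the polyadenylated RNA of the tissue above them, so a spot is a small region that can hold several cells of different types. Each section came from 1 male mouse, a few months old, of the genotype ArcCreERT2::eYFPflx, in which a tamoxifen-dependent Cre recombinase is driven by the Arc promoter and a floxed eYFP reporter is its target. The mouse labelled trained had learned active place avoidance, in which an animal on a rotating arena avoids a zone that gives a mild foot shock. The mouse labelled untrained had been placed on the same arena with the shock always off, and both brains were taken after a test of memory retention. Each group thus held 1 section of 1 mouse, and differences between the sections had no replicate check and cannot be told apart from differences between animals or libraries.

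The section labelled trained held 4152 spots with 29515831 unique molecular identifiers (UMIs, tags that count each captured molecule once), with a median of 5951 UMIs per spot, while its counterpart labelled untrained had 3738 spots, 59029131 UMIs and a median of 13767. Mitochondrially encoded genes took 12.3% of the UMIs under the label trained against 16.2% under the label untrained. Markers of choroid plexus, the tissue that makes cerebrospinal fluid, stood at 5414 CPM (counts in every 1000000 UMIs) and 18320 CPM in the same order. The sections shared 3448 spot barcodes, which are printed at fixed positions on these slides. The outlines of the sections in the images of the study ran opposite to the labels of the deposited files, so the labels may have been exchanged, and every signed difference between the sections would then turn around. Comparisons between regions of a section do not depend on this.

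Glycolysis splits glucose into pyruvate and yields ATP and NADH, and lactate dehydrogenase interconverts pyruvate and lactate. The brain uses glucose as its main fuel, and several steps are run by paralogous enzymes that differ between cell types: gamma enolase (Eno2) is known from neurons and alpha enolase (Eno1) from many cell types including glia, while aldolase C (Aldoc) is a marker of astrocytes. Of the lactate dehydrogenase subunits, Ldha is known to favour the formation of lactate and Ldhb the formation of pyruvate.

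Promoter sequences are shown for the enolase and lactate dehydrogenase pairs, because the regional patterns of the members of these pairs differed in what follows. Each is the 300-base window of RefSeq on GRCm38.p6, from 250 bases before to 50 bases after the RefSeq start that lies nearest to the annotated start of the gene, which for Ldha falls inside the annotated gene. Capitals mark the letters ACGTG and GCGTG on either strand, the core of the motif read by hypoxia-inducible factors, which are known regulators of glycolysis genes. The word CACGTG holds ACGTG on both strands and counts as 2 matches.
Eno1 promoter, chr4:150236458-150236757, plus strand: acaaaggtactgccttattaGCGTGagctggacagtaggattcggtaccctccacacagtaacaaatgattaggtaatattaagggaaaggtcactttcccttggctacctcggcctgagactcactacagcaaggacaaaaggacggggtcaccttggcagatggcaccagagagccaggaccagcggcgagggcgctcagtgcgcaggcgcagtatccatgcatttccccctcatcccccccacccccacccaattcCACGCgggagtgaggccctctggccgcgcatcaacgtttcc
Eno2 promoter, chr6:124769624-124769923, minus strand: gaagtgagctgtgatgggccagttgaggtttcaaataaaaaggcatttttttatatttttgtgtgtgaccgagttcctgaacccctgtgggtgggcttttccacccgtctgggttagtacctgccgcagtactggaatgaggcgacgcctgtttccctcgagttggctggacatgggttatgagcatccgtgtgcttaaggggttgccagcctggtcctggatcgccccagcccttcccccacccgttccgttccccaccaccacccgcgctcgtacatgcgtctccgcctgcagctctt
Ldha promoter, chr7:46845554-46845853, plus strand: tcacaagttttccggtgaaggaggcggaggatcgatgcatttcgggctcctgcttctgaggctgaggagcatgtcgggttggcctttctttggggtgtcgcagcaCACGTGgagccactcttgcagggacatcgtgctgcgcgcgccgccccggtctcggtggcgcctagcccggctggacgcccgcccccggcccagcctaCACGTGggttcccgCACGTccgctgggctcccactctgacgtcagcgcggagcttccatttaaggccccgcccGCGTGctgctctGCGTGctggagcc
Ldhb promoter, chr6:142507908-142508207, minus strand: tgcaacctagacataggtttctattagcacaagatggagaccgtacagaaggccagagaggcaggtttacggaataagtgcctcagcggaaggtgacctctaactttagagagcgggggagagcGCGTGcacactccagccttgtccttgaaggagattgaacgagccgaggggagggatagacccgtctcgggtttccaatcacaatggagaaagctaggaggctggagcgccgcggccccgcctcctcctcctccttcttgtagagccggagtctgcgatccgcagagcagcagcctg
All 10 enzymes matched a window. The Ldha window held 7 matches, that of Pfkp 4, that of Gapdh 3, those of Pgk1 and Eno1 2 each and that of Ldhb 1, while the windows of Hk1, Aldoa, Eno2 and Pkm held 0. Only the nearest window of each enzyme was searched, though Aldoa and Eno1 had 3 windows each and Hk1, Pkm and Ldha 2 each. Of all 32851 promoter windows of this length, 43.8% held at least 1 match and 20.6% at least 2. A match describes letters in a window and is not evidence of binding.

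Spots of both sections were clustered together without using the 10 enzymes, and clusters were named from marker genes into 16 regions. Of these, 15 held at least 30 spots in both sections and were compared. The other, cluster 16, held 1 and 182 spots and was left out. The labelled tissue was checked by its markers. Prox1, Dsp and C1ql2 led the cluster named dentate gyrus granule layer, and Wfs1, Fibcd1 and Lefty1 were among the leading genes of the clusters named CA1 pyramidal layer. Cluster 14 lay at the place of the CA3 layer and scored highest for markers of the CA3 list, at a mean z of 1.88, beside 1.09 for those of the amygdala. The leading genes of cluster 14, such as Cabp7, Klk8, Neurod6, Homer3 and Lpl, held no marker of the CA3 list, so it was left unnamed. Some names are approximate. The cluster named midline and medial thalamus scored 1.96 for markers of the sensory relay thalamus and 1.94 for its own, as mean z. The larger cluster of the deep layer neocortex scored higher for markers of retrosplenial and piriform cortex, and the larger cluster of the group named reticular thalamus, zona incerta and pallidum scored higher for white matter. The hippocampus, outlined from its clusters, held 584 spots with 4400587 UMIs under the label trained against 560 spots with 11320379 UMIs under the label untrained.

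The enzymes varied over the regions by 1.90-fold to 3.43-fold under the label trained, and by 1.89-fold to 3.63-fold under the label untrained, from the region with the lowest to that with the highest level. The highest levels lay mostly in cluster 14, the deep layer neocortex or the reticular thalamus group, and the lowest mostly in white matter, hippocampal neuropil and choroid plexus. Ldha and Ldhb, the lactate dehydrogenase genes, had their extremes in different regions. All levels are UMIs pooled over the spots of a region as CPM with an exact Poisson 95% interval. Intervals here and below cover counting error only. Captured 3′ ends are counted once per molecule and do not scale with transcript length, so levels are compared between regions for 1 gene and not between genes. In spots, fewer cells of a type and less RNA per cell cannot be told apart.

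**Figure D1:**
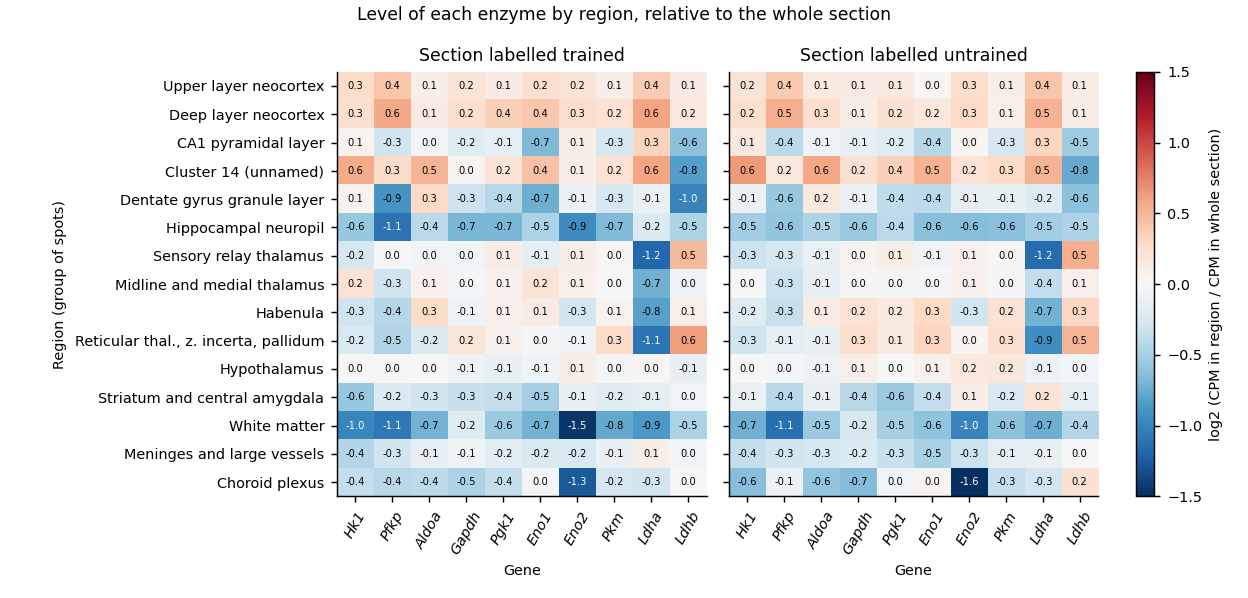
Level of each enzyme (columns) in 15 groups of spots (rows), for the section labelled trained (left) and the section labelled untrained (right). The colour and the printed value give log2 of the CPM in the region over the CPM in the whole section. Eno2 is lowest in white matter and choroid plexus in both sections, and Ldha is lowest in the sensory relay thalamus, where Ldhb is above its whole-section level.

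Hexokinase 1, encoded by Hk1 (ENSMUSG00000037012, chr10:62268855-62379908, minus strand, GRCm38), traps glucose in the cell by phosphorylation. It was highest in cluster 14, with 236 CPM (210.5 to 264) under the label trained against 291 CPM (273 to 309) under the label untrained. It was lowest in white matter, with 81.6 CPM (68.0 to 97.0) and 113 CPM (100.2 to 127). The fold between these regions was 2.90 and 2.58, and the intervals of the extremes did not overlap in either section.

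Platelet-type phosphofructokinase, encoded by Pfkp (ENSMUSG00000021196, chr13:6579768-6648777, minus strand), forms part of the enzyme at the committed step. Its level was highest in the deep layer neocortex, with 204 CPM (192 to 218) and 240 CPM (228 to 251) in the order trained, untrained. The lowest level was 64.1 CPM (40.6 to 96.1) in hippocampal neuropil under the label trained, from 23 UMIs, and 75.0 CPM (64.7 to 86.4) in white matter under the label untrained. White matter under the label trained, at 65.5 CPM, was not separated from the neuropil.

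Aldolase A, encoded by Aldoa (ENSMUSG00000030695, chr7:126795234-126800751, minus strand), cleaves fructose bisphosphate into triose phosphates. Cluster 14 held 2744 CPM (2655 to 2836) and 2991 CPM (2934 to 3049) and stood above the dentate gyrus granule layer and all other regions in both sections. The lowest levels were 1180 CPM in white matter under the label trained, and 1323 CPM in choroid plexus under the label untrained. The symbol Aldoa stands on a second row of the matrices, ENSMUSG00000114515, which held 2 UMIs under the label trained against 1 UMI under the label untrained, and that row was left out.

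Gapdh (ENSMUSG00000057666, chr6:125161715-125166467, minus strand) encodes glyceraldehyde-3-phosphate dehydrogenase, which carries out the oxidation step and is often used as a reference gene. It varied least over the regions under the label trained, by 1.90-fold, and under the label untrained by 1.89-fold, as Pgk1 did. The highest level under the label trained was 2645 CPM (2599 to 2691) in the deep layer neocortex, and the highest under the label untrained was 3412 CPM in the reticular thalamus group. The lowest were 1393 CPM (1273 to 1520) in hippocampal neuropil and 1809 CPM (1771 to 1847) in choroid plexus. White matter, at 1966 CPM and 2413 CPM, lay nearer to the deep layer neocortex for Gapdh than for any other of the 10, with a log2 difference from the deep layer neocortex of -0.43 and -0.32, against -1.72 and -1.28 for Eno2.

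Phosphoglycerate kinase 1, encoded by Pgk1 (ENSMUSG00000062070, chrX:106187100-106203699, plus strand), makes ATP from bisphosphoglycerate. It was highest under the label trained in the deep layer neocortex, at 527 CPM (506 to 548), and under the label untrained in cluster 14, at 619 CPM (594 to 646). Its lowest levels were 256 CPM in hippocampal neuropil and 328 CPM in the striatum and central amygdala.

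The enolases convert phosphoglycerate to phosphoenolpyruvate. Eno2 (ENSMUSG00000004267, chr6:124760053-124769673, minus strand) was highest in the deep layer neocortex, with 589 CPM (567 to 611) and 620 CPM (602 to 638). Its level was 179 CPM (158 to 201) and 255 CPM (236 to 276) in white matter and 206 CPM (174 to 243) and 171 CPM (159 to 183) in choroid plexus. Eno1 (ENSMUSG00000063524, chr4:150236721-150248879, plus strand) had another order of regions. It was highest in cluster 14, with 387 CPM (353 to 422) and 385 CPM (365 to 406), and reached 279 CPM and 277 CPM in choroid plexus, above its 171 CPM (150 to 195) and 205 CPM (192 to 220) in the dentate gyrus granule layer. Across the 15 regions Eno1 and Eno2 had a mean Pearson r of 0.39 between their levels, and Eno1 followed Pgk1 more closely, with a mean r of 0.87.

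Pyruvate kinase M, encoded by Pkm (ENSMUSG00000032294, chr9:59656368-59679375, plus strand), forms pyruvate in the last step. Its levels ranged from 505 CPM in white matter to 1051 CPM in the reticular thalamus group under the label trained, and from 630 CPM in hippocampal neuropil to 1204 CPM in cluster 14 under the label untrained. Counts per gene do not separate its M1 and M2 splice forms.

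The lactate dehydrogenase subunits had different patterns. Ldha (ENSMUSG00000063229, chr7:46841475-46855627, plus strand) was highest in cluster 14 under the label trained, at 423 CPM (388 to 460), and in the deep layer neocortex under the label untrained, at 399 CPM (385 to 414). It was lowest in the sensory relay thalamus in both sections, at 124 CPM (108 to 141) and 125 CPM (116 to 135). Ldhb (ENSMUSG00000030246, chr6:142490249-142507957, minus strand) reached 1048 CPM (1002 to 1097) and 1185 CPM (1156 to 1214) in that same region and 1160 CPM and 1153 CPM in the reticular thalamus group. Its lowest levels lay in the hippocampus, at 376 CPM (344 to 410) in the dentate gyrus granule layer under the label trained, and at 481 CPM (458 to 505) in cluster 14 under the label untrained. From the deep layer neocortex to the sensory relay thalamus, Ldha fell by 1.77 and 1.67 on the log2 scale while Ldhb rose by 0.32 (0.24 to 0.40) and 0.44 (0.39 to 0.49). The mean Pearson r of the pair across regions was -0.47, the lowest of all pairs of the 10 enzymes.

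The order of the regions was alike in the sections, with Spearman correlations over the 15 regions from 0.79 for Pfkp to 0.96 for Ldha, which share the clustering and the scaling by library. Few neighbours in these orders were apart. Of 14 neighbouring pairs, 2 were separated for Gapdh, 1 each for Hk1, Aldoa, Pkm and Ldhb, and 0 for the other enzymes, where separated means the same order and no overlap of the intervals in either section. For Ldhb this pair was the sensory relay thalamus above the habenula. Differences between neighbouring regions of an order are thus mostly within counting error, while those between the extremes are not.

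The score of spatial structure that the authors deposited, Moran's I, which is high where neighbouring spots share a level, was highest for Gapdh, at 0.319 (rank 196 of 20513 genes) under the label trained against 0.323 (rank 289 of 21498) under the label untrained. Aldoa had 0.317 and 0.249, Ldhb 0.235 and 0.294, and Hk1 the lowest, 0.0902 and 0.138. Depth differed between the sections, so the score is not compared between them. Counts differed between genes too, from 4064 UMIs for Pfkp to 65899 for Gapdh under the label trained, and their part in the score was not tested. Transcripts of the enzymes were found in 48.3% (Pfkp) to 95.5% (Gapdh) of spots under the label trained, and in 76.0% to 97.5% of those under the label untrained for the same genes.

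The share of 1 paralog in its family showed where the balance of enzymes shifted. These shares depend on capture of each transcript, so they are read only against the same share in other regions or in the other section. Eno2 made up 63.3% of enolase UMIs (Eno1 and Eno2) in the whole section labelled trained and 65.4% in that labelled untrained. It took 74.4% (Clopper-Pearson 95% interval 71.5 to 77.1) and 72.1% (70.2 to 73.9) in the CA1 pyramidal layer and 73.1% and 69.4% in the dentate gyrus granule layer. In white matter the share was 50.6% (46.3 to 54.8) and 59.1% (56.2 to 62.1), and in choroid plexus 42.5% (37.2 to 47.9) and 38.1% (36.1 to 40.2). The CA1 pyramidal layer and the dentate gyrus granule layer thus lay above white matter and choroid plexus in both sections, without overlap. Cluster 14, which had the highest level of neuron markers of the hippocampal clusters, was lower, at 57.8% (54.9 to 60.6) and 60.5% (58.8 to 62.2), where Eno1 was at its highest. Under the label untrained its interval overlapped that of white matter.

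Ldhb made up 72.8% and 74.5% of lactate dehydrogenase UMIs (Ldha and Ldhb) in the whole sections. Its share was 89.5% (88.1 to 90.7) and 90.5% (89.8 to 91.1) in the sensory relay thalamus and 89.8% and 88.8% in the reticular thalamus group. It was 77.9% and 78.2% in white matter, 66.5% and 68.6% in the deep layer neocortex, and 57.8% (54.9 to 60.7) and 61.8% (60.01 to 63.5) in the CA1 pyramidal layer. Cluster 14 had the lowest share of all regions, 50% (47.0 to 53.0) and 55.0% (53.2 to 56.7). Over the hippocampus the share was 56.6% (54.9 to 58.3) under the label trained against 62.5% (61.5 to 63.5) under the label untrained. The Spearman correlation of this share between the sections was 0.94 over the 15 regions, against 0.84 for the Eno2 share.

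**Figure D2:**
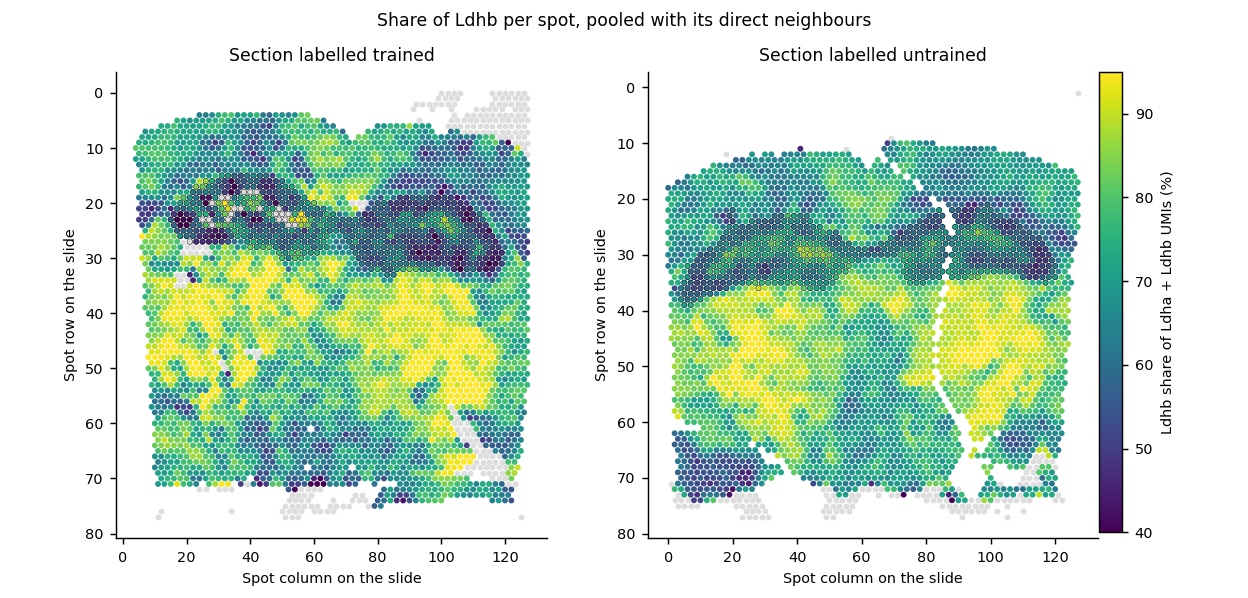
Share of Ldhb in the UMIs of Ldha and Ldhb at each spot, pooled with its direct neighbours, for the section labelled trained (left) and untrained (right). Axes are spot columns and rows on the slide, black rings mark hippocampal spots and grey spots had under 10 pooled UMIs. The hippocampus and cortex are low and the thalamus is high, with whole-hippocampus shares of 56.6% and 62.5%.

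Aldoa, compared with the astrocyte paralog Aldoc, was at its highest share in cluster 14, with 85.9% and 83.3%, and in the dentate gyrus granule layer, with 83.9% and 75.6%. It was at 53.4% and 53.1% in hippocampal neuropil, which has few neuronal cell bodies, at 58.1% and 58.6% in white matter, and at 60.1% and 49.9% in the reticular thalamus group. From the CA1 pyramidal layer to the neuropil Aldoc rose by 1.32 (1.15 to 1.5) and 0.92 (0.78 to 1.05) on the log2 scale, while Aldoa fell by 0.36 and 0.39. The neuropil spots were shallow, with medians of 2201 and 6391 UMIs. Pfkp held 27.9% and 32.3% of phosphofructokinase UMIs (Pfkp, Pfkl and Pfkm). Its regional extremes differed between the sections, the highest share being 33.5% in the deep layer neocortex under the label trained, and 43.8% in choroid plexus under the label untrained. Hk1 made up 94.8% to 100% of hexokinase UMIs (Hk1 and Hk2) in every region of both sections, the narrowest range of the 5 families.

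**Figure D3:**
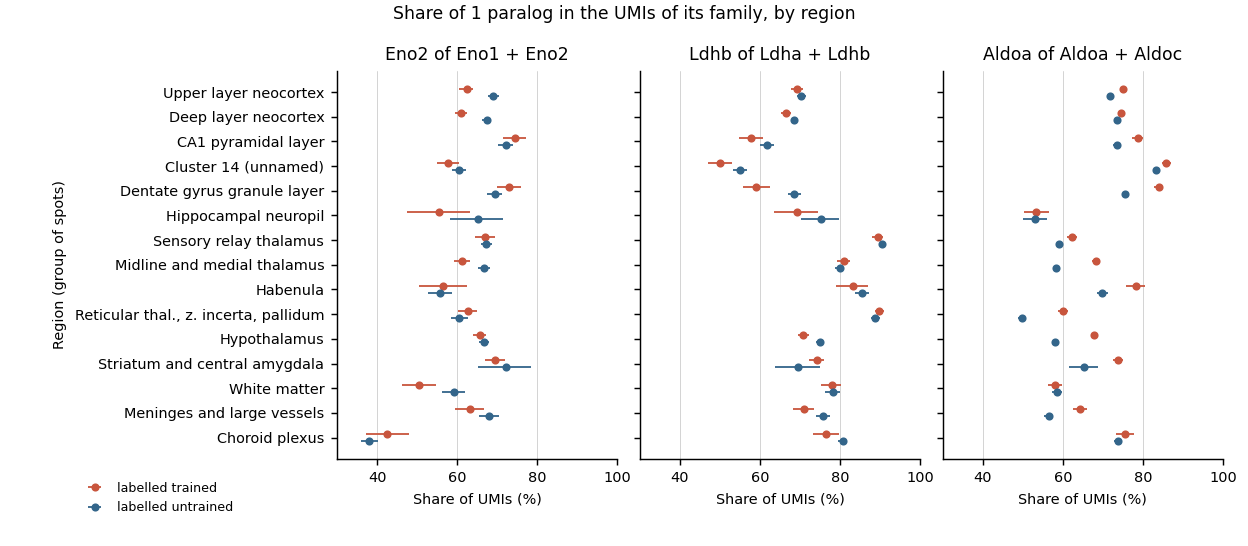
Share of Eno2, Ldhb and Aldoa in the UMIs of their pair (horizontal axes, percent, from 30 to 100) by region for both sections. Points are pooled shares and bars are Clopper-Pearson 95% intervals. The Eno2 share is lowest in choroid plexus, at 42.5% and 38.1%, and the Ldhb share is lowest in cluster 14, at 50% and 55.0%.

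Neuronal and glial association was also described without region names. Within each section, spots were ordered by the share of their UMIs in a list of cell type markers and divided into 5 groups of equal size, and the levels in the highest and the lowest group were compared. No share of all genes that differ in the same way is given for these groups. Counts of enzymes along markers, also in the deeper spots, are therefore not read as particular to the enzymes. With neuron markers such as Snap25, Syt1 and Nefl, 10 of 10 enzymes were higher in the highest group in both sections, with a median log2 difference of 0.82 under the label trained against 0.68 under the label untrained. Eno2 differed most, by 1.47 (1.36 to 1.58) and 1.51 (1.44 to 1.58), from 223 to 620 CPM and from 224 to 638 CPM. Gapdh differed least under the label trained, by 0.48 (0.44 to 0.52), and Ldhb least under the label untrained, by 0.19 (0.15 to 0.23). All 10 enzymes rose at every step under the label trained, and 7 did so under the label untrained. The median depth rose alongside, from 3645 to 8301 UMIs per spot and from 8627 to 17565. In the deeper spots alone, those at or above the median UMI count of their section, 10 of 10 stayed higher, with medians of 0.66 and 0.58. The lead of Eno2 was lost there under the label trained, where it differed by 0.85 (0.76 to 0.95), beside 0.98 for Pfkp and 0.94 for Eno1, while under the label untrained it stayed highest, at 1.16.

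With astrocyte markers such as Slc1a3, Aqp4 and Gja1, 9 enzymes of the section labelled trained and 10 of that labelled untrained were lower in the highest group, with medians of -0.36 and -0.41. The astrocyte aldolase Aldoc, which is not one of the 10, was higher there by 1.22 and 1.05. Ldhb differed by 0.05 (-0.02 to 0.12) and -0.06 (-0.11 to -0.02). With oligodendrocyte markers, 9 of 10 were lower in both sections. Ldha fell by 0.97 in both, from 355 to 181 CPM and from 352 to 180 CPM, and over all spots Ldhb was the only enzyme that was higher, by 0.15 (0.08 to 0.21) and 0.10 (0.05 to 0.15). With microglia markers the interval lay below 0 for 9 enzymes under the label trained, where Ldhb differed by -0.0071 (-0.08 to 0.06), and for 10 under the label untrained. With endothelial markers it lay below 0 for 6 in both sections, Ldhb again being higher, by 0.14 and 0.33. Median depth fell from the lowest to the highest group of astrocyte markers, from 7910 to 3811 and from 19778 to 10128 UMIs per spot, and of oligodendrocyte markers, from 8599 to 4178 and from 21884 to 7811. In the deeper spots, the median difference of the enzymes along astrocyte markers was -0.23 and -0.31. Under the label trained Eno2 moved there from -0.55 to -0.25 and Eno1 to -0.01 (-0.13 to 0.10), and the Ldhb interval lay above 0, at 0.13 (0.06 to 0.20). Along microglia markers Ldhb was at 0.06 (-0.0093 to 0.13) there. In the same spots the median along oligodendrocyte markers was -0.36 and -0.12, and intervals lay below 0 for 8 enzymes of the section labelled trained and 5 of that labelled untrained. There Ldha fell by 0.76 and 0.81, Ldhb was higher by 0.42 and 0.37, and Gapdh differed by 0.03 (-0.01 to 0.07) and 0.00055 (-0.02 to 0.03). Marker shares of 1 spot sum to less than its total, so a gain of one cell type is in part a loss of the others. For these glial and endothelial orders too, no share of all genes is given, and nothing particular to the enzymes is read from the counts.

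**Figure D4:**
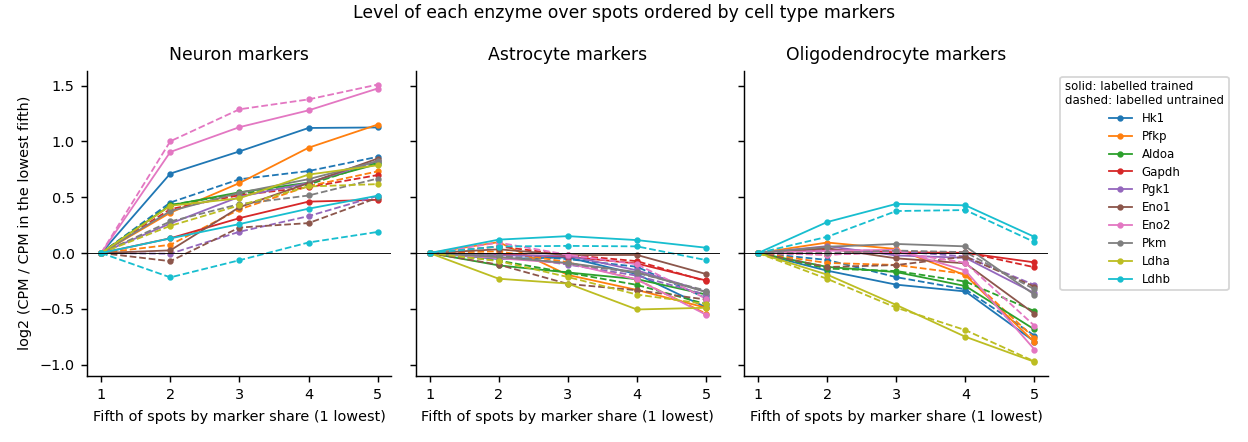
Level of each enzyme in 5 equal groups of spots ordered by the share of neuron, astrocyte or oligodendrocyte markers (horizontal axes, 1 lowest), as log2 of its CPM over that in the lowest group. Solid lines are the section labelled trained and dashed lines that labelled untrained. Over all spots Eno2 climbs most with neuron markers, by 1.47 and 1.51, though not in the deeper spots of the section labelled trained, and Ldha and Ldhb part with oligodendrocyte markers.

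The genes with the most similar regional pattern were found among 3057 genes with at least 50 CPM in both sections, by the mean of the Pearson r of both sections over the 15 regions, whose libraries and scaling they share. Eno2 was closest to Nipsnap1 (0.95) and Rnf208 (0.94), Hk1 to Sms (0.91) and Snap91 (0.91), and Aldoa to Atp6v1e1 (0.92) and Napb (0.92). Gapdh was closest to Cox5a (0.91) and Pomp (0.90), Pgk1 to Atp5o (0.90) and Idh3a (0.88), Pfkp to Idh3a (0.82) and Ndufa4 (0.82), and Pkm to Ghitm (0.92) and Mdh1 (0.92). Eno1 was closest to Pgk1 (0.87) and Atp5o (0.86), Ldha to Pld3 (0.91) and Gpm6a (0.88), and Ldhb to Plcb4 (0.83) and Cox4i1 (0.80).

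Between the sections, the 10 enzymes differed by less than 1.5-fold in the whole section and in the hippocampus. Together they took 0.755% of UMIs under the label trained against 0.851% under the label untrained. With 1 section per group no test across animals exists, and a gene was called where it differed by at least 1.5-fold (0.585 on the log2 scale) among genes with at least 400 UMIs over both sections. Of 11460 such genes in the whole section, 4.75% were lower and 8.06% higher under the label trained, and of the enzymes 0 were lower and 0 higher. Of 5800 genes in the hippocampus, 4.12% were lower and 8.55% higher, and again 0 enzymes were in either group. Summed cell type markers also differed between the sections. Neuron markers summed to 7512 CPM and 6187 CPM in the whole sections and to 7048 CPM and 6247 CPM in the hippocampus, in the order trained, untrained, and red blood cell markers to 1969 CPM and 1284 CPM in the whole sections and to 5726 CPM and 811 CPM in hippocampal neuropil. Their part in the ratios was not tested.

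In the whole section, Gapdh was at 2233 CPM under the label trained against 2840 CPM under the label untrained, a log2 ratio of trained over untrained of -0.35 (-0.36 to -0.33). The ratio was -0.25 for Pfkp, -0.23 for Pgk1, -0.21 for Hk1, -0.18 for Pkm and -0.11 for Ldhb. Aldoa and Eno2 were both at -0.05, Ldha at 0.01 (-0.03 to 0.05) and Eno1 at 0.09 (0.05 to 0.12). The median of the enzymes was -0.15, beside 0.07 for all genes compared, and it was 0.00020 once the trend of the ratios with GC content was removed, so its direction depends on that step. With the GC trend removed, Pkm moved to -0.0025 and Hk1 to -0.05, Eno1 rose to 0.26, and Aldoa turned to 0.12, Eno2 to 0.10 and Ldhb to 0.0029. By the same step Pfkp was at -0.28 and Pgk1 at -0.22, both below Gapdh at -0.19. Ldha was of the other sign in 7 of 11 alternatives. Gapdh stayed below 0 in all 11, from -0.42 to -0.19, as did Pfkp, Pgk1, Hk1 and Pkm. In spots thinned to 1000 UMIs, Pfkp moved to -0.47, and centred on the median gene Eno1 moved to 0.01.

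In the hippocampus, the median of the enzymes was -0.27, beside 0.07 for all genes, and -0.10 with the GC trend removed. Gapdh was again lowest, at 1950 CPM and 2821 CPM, a log2 ratio of -0.53 (-0.57 to -0.50), and with the GC trend removed it was -0.35. Pgk1 was at -0.31 (-0.39 to -0.23), Pkm at -0.29 (-0.34 to -0.23), and Pfkp, Ldhb and Hk1 were each between -0.27 and -0.26. Eno1 had -0.10 (-0.20 to 0.0022), Eno2 -0.09 (-0.16 to -0.01), Aldoa -0.05 (-0.08 to -0.02) and Ldha 0.08 (-0.0038 to 0.17). Ldha was of the other sign in 2 of 13 alternatives. With the GC trend removed Aldoa turned to 0.12, Eno1 to 0.07 and Eno2 to 0.07. By the same step Ldhb moved to -0.14, Pkm to -0.11 and Hk1 to -0.08, while Pgk1 was at -0.30 and Pfkp at -0.29. In spots thinned to 1000 UMIs, Hk1 was also at -0.08, Pgk1 at -0.48 and Eno2 at -0.46, and Eno1 turned to 0.03. Mitochondrially encoded genes took 11.7% and 16.3% of the UMIs of the hippocampus in the order trained, untrained, and their part in these ratios is given by leaving them out of the total, which put Gapdh at -0.61, past 1.5-fold.

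By region, the median ratio of the compared enzymes was below 0 in 15 of 15 regions, and in 12 of 15 with the GC trend removed within each region, from -0.21 in white matter to 0.04 in choroid plexus, so this direction too depends on that step. The Gapdh interval lay below 0 in 15 of 15, from -0.17 in choroid plexus to -0.61 in the habenula, and was at -0.57 in the dentate gyrus granule layer, at -0.54 in cluster 14 and at -0.41 in the CA1 pyramidal layer. With the GC trend removed the Gapdh ratio stayed below 0 in each region, nearest to 0 in choroid plexus, at -0.03. Of 205 genes compared in all regions, 13.7% had an interval below 0 in every one. Intervals of Pgk1 lay below 0 in 12 of 14 regions where it was compared, those of Ldhb in 12 of 15, of Pkm in 11 of 15, of Pfkp in 7 of 11 and of Hk1 in 5 of 12, and above 0 in 0 regions for each of these. Over all genes, 21.3% of 34002 pairs of a gene and a region had an interval below 0 and 35.6% one above 0, beside 55.8% and 8.70% of the 138 pairs of the enzymes. Intervals are narrower for genes with more UMIs, so nothing particular to the enzymes is read from these shares. Gapdh in the habenula, at 2154 CPM and 3291 CPM from 55 and 81 spots, was the only ratio of a compared enzyme past 1.5-fold in any region. Its interval (-0.72 to -0.51) spans that fold, and the call ended with the GC trend removed, at -0.58, and with every spot weighted equally, at -0.57. There 8.50% of 694 genes were at least 1.5-fold lower under the label trained. Regions of 1 section share its library and are not replicates of each other.

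**Figure D5:**
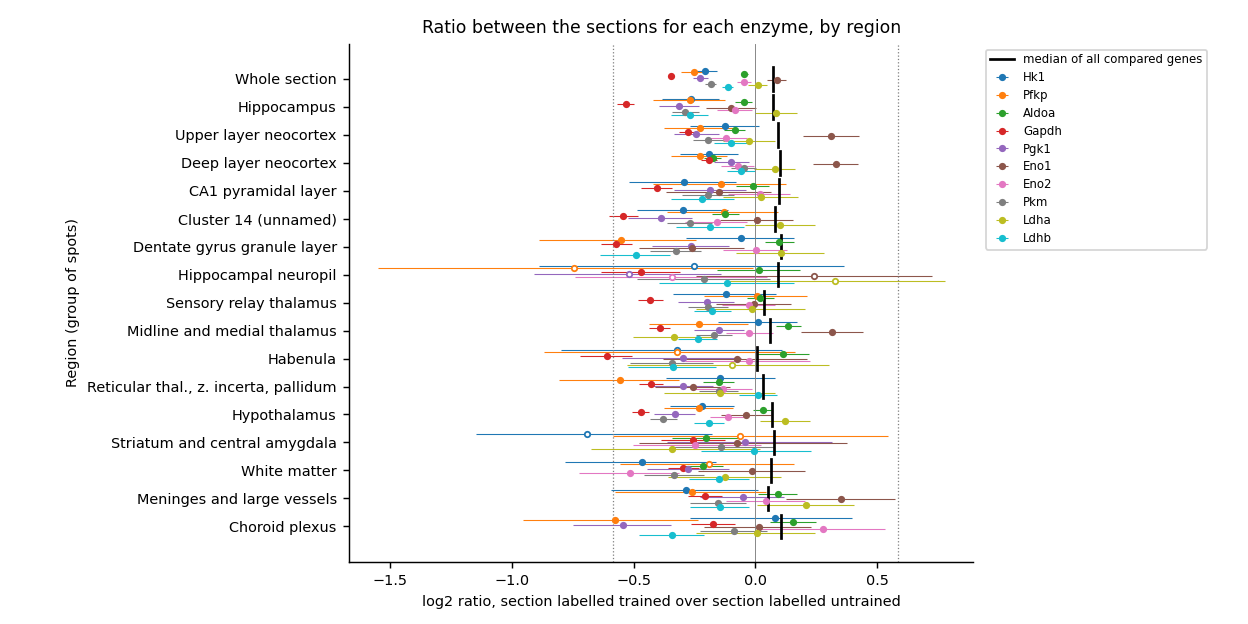
log2 ratio of CPM, the section labelled trained divided by that labelled untrained (horizontal axis) for each enzyme, in the whole section, the hippocampus and 15 regions (rows). Bars are exact conditional 95% counting intervals, open points had under 400 UMIs and were not compared, black ticks are the median of all compared genes and dotted lines mark 1.5-fold. Gapdh lies below 0 in every row, and only its value of -0.61 in the habenula passes 1.5-fold among the compared points, a call that ends at -0.58 with the GC trend removed.

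Eno1 and Aldoa differed in sign between regions, as did Eno2 and Ldha and 23.0% of 1228 genes compared in at least 11 regions, by intervals above 0 in one region and below 0 in another. Eno1 was higher under the label trained in the deep layer neocortex, at 377 CPM against 300.4 CPM with a log2 ratio of 0.33 (0.24 to 0.42), in the upper layer neocortex, at 0.31 (0.19 to 0.42), in the midline and medial thalamus, at 0.32 (0.19 to 0.44), and in the meninges and large vessels, at 0.35. It was lower, as Gapdh was, in the dentate gyrus granule layer, at -0.26 (-0.48 to -0.05), and in the reticular thalamus group, at -0.26 (-0.41 to -0.11), which moved to -0.06 and -0.17 with the GC trend removed. Eno2 in the deep layer neocortex was at 589 CPM and 620 CPM, a ratio of -0.07 (-0.14 to -0.0047), so the Eno2 share there was 61.0% (59.5 to 62.4) under the label trained against 67.4% (66.2 to 68.5) under the label untrained. Aldoa intervals lay above 0 in 5 regions and below 0, with those of Gapdh, in 6 others, of which 3 turned above 0 with the GC trend removed, the striatum and central amygdala, the upper layer neocortex and cluster 14. Its paralog Aldoc was at -0.34 in the whole section and -0.36 in the hippocampus.

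Other genes of the pathway were taken from a fixed list of 55, of which 38 had enough UMIs in the whole section. Of these, 3 were at least 1.5-fold lower and 3 at least 1.5-fold higher under the label trained, the median was -0.0021 beside 0.07 for all genes, and 19 were on each side of 0. Of all genes compared 4.75% were lower and 8.06% higher by that fold, so the share of listed genes that were higher was close to that of all genes. Those lower were Bsg (-0.73), the chaperone of monocarboxylate carriers, the muscle-type mutase Pgam2 (-0.72) and the muscle-type glycogen phosphorylase Pygm (-0.84). Those higher were Mpc1 (0.71), a subunit of the mitochondrial pyruvate carrier, Pfkfb2 (0.62), which sets the level of an activator of phosphofructokinase, and the phosphoglucomutase Pgm2 (0.68). Pgam2 and Pgm2 were low, at under 10 CPM in both sections.

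In the hippocampus 21 of the listed genes were compared, with 1 lower, Bsg (-0.60), 1 higher, Mpc1 (0.67), and a median of -0.06, beside 4.12% lower and 8.55% higher of all genes. The 7 other isozymes compared there had a median of -0.18 and were below 0, but the intervals of Pfkl, Pfkm and Bpgm included 0. In the whole section 6 isozymes were below 0 and 4 above, with a median of -0.03. In the hippocampus Gpi1, which makes fructose phosphate, was at -0.28, the triose isomerase Tpi1 at -0.18 and the mutase Pgam1 at -0.19. The 10 genes of pyruvate entry and glycogen had a median of 0.14, with Dlat at 0.42 and Pdhb at 0.34, subunits of pyruvate dehydrogenase, and the brain glycogen phosphorylase Pygb at -0.52. Of the glucose carriers, the neuronal Slc2a3 was at 0.34 (0.16 to 0.52). Slc2a1, known from endothelium and astrocytes, was at -0.13 (-0.39 to 0.11), an interval that included 0. The list of endothelial markers, which includes Bsg, summed to 761 CPM and 1146 CPM in the whole sections and to 561 CPM and 810.4 CPM in the hippocampus, and its part in the ratio of Bsg was not tested.

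By region, the carriers differed in direction. From the deep layer neocortex to white matter, Slc2a3 fell by 1.82 and 1.34 on the log2 scale, while Slc2a1 was higher by 0.66 (0.37 to 0.95) and 0.81 (0.58 to 1.04) and the lactate carrier Slc16a1 by 1.32 (0.89 to 1.74) and 1.19 (0.78 to 1.59). In choroid plexus Slc2a1 was higher than in the deep layer neocortex by 1.41 and 1.60.

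Several of the enzymes have near-identical copies in the genome, with which they can share reads. Loci of at least 95% identity over at least 200 bases were counted by aligning the longest transcript of each gene to GRCm38. Gapdh had 47 such loci, of which 45 held its 3′ end, where Visium counts. Eno1 had 4 and Pgk1 4, all with the 3′ end, Ldha 2 without it, and Ldhb and Pkm 1 each with it. Hk1, Pfkp, Aldoa and Eno2 had 0. Matrix genes at these loci were few and low beside the parent genes, with 6 and 28 UMIs for Gm3839, 0 and 1 for Gm10358 and 1 and 1 for Vmn2r60 at Gapdh copies, against 65899 and 167650 for Gapdh, and 127 and 196 UMIs for Eno1b, against 8435 and 15884 for Eno1. Reads that match several loci equally may not have been counted, so the levels of Gapdh, Eno1, Pgk1, Ldhb and Pkm, and the shares of Eno2 and Ldhb, are uncertain in scale. Exons of Gapdh overlap Iffo1 on the opposite strand, those of Aldoa Fam57b, those of Hk1 Hk1os and those of Pfkp Pitrm1, and Pkm overlaps Gm49759 on the same strand. Whether counting used the strand is not given in the sources used here.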

How the data were processed

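Per the labels, the authors made the deposited counts with Space Ranger 2.0.0 on mm10, after reads had been trimmed with TrimGalore; they are UMIs per gene and spot in the filtered matrices. The authors also deposited a score, Moran's I, with counts per gene. Sequencing reads and the authors' p-values were not used here, and images served only to compare the outlines of the sections.

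Python 3.11.15 was used with scanpy 1.11.5, leidenalg 0.10.2, igraph 0.11.9, pandas 2.3.3, numpy 2.4.6, scipy 1.17.1 and BLAST+ 2.17.0, with GENCODE vM21 on GRCm38. Spots of at least 500 UMIs (7582 of both sections) were clustered with 948 variable genes, leaving out all listed genes, 30 principal components, 15 neighbours and the Leiden method at resolution 1.5 (21 clusters). Clusters took the name of the first or second marker set by mean z, of at least 0.5, with 3 detected markers. These thresholds and the hippocampal outline were chosen once the maps were known. The members and gene lists were chosen with earlier results of these data known. UMIs were pooled per region and ratios used a pseudocount of 0.5 UMI. All 10 enzymes were named, with listed pathway genes and the 2 genes of highest r. The calls were tested on simulated data, which covers counting error only. No test across sections exists, and spots were not used as replicates. Alternatives for scaling, pooling, depth, side, composition, GC content and clustering are given in the closing section.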

Additional observations from a re-analysis of the deposited data

Results flagged for a closer look

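For 4 enzymes the counting interval of the ratio between the sections lay above 0 in one region and below 0 in another. Of 1228 genes compared in at least 11 regions, as each enzyme was, 23.0% did the same, so nothing particular to the enzymes is read from it. The difference between regions was not tested, since each group held 1 section. Aldoa had a log2 ratio of trained over untrained of 0.16 in choroid plexus and -0.22 in white matter. Eno1 had 0.35 in the meninges and large vessels and -0.26 in the dentate gyrus granule layer. Eno2 had 0.28 in choroid plexus, from 144 and 825 UMIs, and -0.52 in white matter, from 278 and 654 UMIs. Ldha had 0.21 in the meninges and large vessels and -0.34 in the midline and medial thalamus. Choroid plexus held 72 and 166 spots, with medians of 8634 and 24194 UMIs.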

How the results depend on the processing

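No paired analysis was possible because each group held 1 section. The whole-section median of the enzymes (-0.15) was -0.21 without mitochondrially encoded genes in the total, -0.21 also without ribosomal protein genes, -0.22 centred on the median gene, -0.18 with every spot weighted equally, -0.18 as a mean over shared regions and 0.00020 with the GC trend removed. The hippocampal median (-0.27) was -0.35 without mitochondrially encoded genes and -0.10 with the GC trend removed. At a smaller fold for a call, 1 enzyme was lower in the whole section and 1 in the hippocampus. At a fold of 1.5, 1 was lower in the hippocampus without mitochondrially encoded genes, 1 also without ribosomal protein genes and 1 centred on the median gene. For these counts no share of all genes under the same setting is given, so nothing particular to the enzymes is read from them. The ratio of Hk1 in the striatum and central amygdala, -0.69 and not among those compared, turned to 1.67 in spots thinned to 1000 UMIs, where 33 and 1 UMIs were left. The cause was not tested for any of these. Of 1990 ratios under alternatives, 1592 moved by less than their counting interval, 397 by more, and 1 that was past 1.5-fold, that of Hk1, changed sign. Smaller ratios that changed sign are counted by how far they moved. Of 1760 levels 1172 stayed, and of 730 paralog shares 572. The GC correction of the region medians and the analysis of deeper spots were chosen after seeing the data, and 65 of 100 differences in deeper spots moved beyond their interval. Clustering resolution cannot change whole-section values, and the scaling total cannot change a share. Median depth per spot was lowest in hippocampal neuropil, and of the compared regions the striatum and central amygdala under the label untrained held the fewest UMIs, 252937.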
